A study of Homo sapiens with 32 samples.

Results

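The genes described are the components of the RAS-RAF-MEK-ERK pathway, 32 genes of the 57773 in each count table, measured in HEK293 cells 6 h and 24 h after stimulation of the angiotensin II receptor AT1R, of the EGF receptor or of both. They were chosen by symbol as adaptors, RAS proteins, RAF kinases, MEK, ERK, GTPase-activating proteins and ERK-dependent kinases, and all 32 have counts at both time points. HEK293 is an established human embryonic kidney cell line. In every group, control included, the cells carried AT1R from a transiently transfected expression plasmid, and the medium was replaced by one without serum before the stimuli. Control cells received no stimulus, and the other cells received AII (angiotensin II, 1 nM), EGF (10 µg/l) or AII+EGF. Each condition had 4 libraries after 6 h and after 24 h, except AII+EGF after 24 h with 3. The labels do not say whether the libraries of a group came from separate cultures, so that p-values measure the spread between these libraries, which may be technical. In a transient transfection only some of the cells take up the plasmid, and in a bulk sample a change in these cells and a smaller change in all cells cannot be told apart.

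The pathway carries the signal of an activated receptor to the nucleus. The phosphorylated EGF receptor binds the adaptors GRB2 and SHC1, GRB2 brings the exchange factors SOS1 and SOS2 to the membrane, and these load RAS proteins with GTP. GTP-bound RAS activates RAF kinases, RAF phosphorylates MEK, and MEK phosphorylates ERK, which acts on the kinases of the RSK, MSK and MNK families and on transcription factors such as the partners of SRF. GTPase-activating proteins return RAS to its inactive state. AT1R, a G protein-coupled receptor, can reach the same cascade through protein kinase C. The signal itself runs through phosphorylation, which was not measured in these libraries; the values below are amounts of RNA.

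The libraries held 3881841 to 8540815 counted reads after 6 h and 6646227 to 33070903 after 24 h, of which the 32 members together took 9166 to 19799 and 8525 to 21401. The share of protein-coding genes was 81.4% to 84.7% at the early and 20.8% to 63.4% at the late time point, where U1 small nuclear RNA took 8.90% to 57.2% of a library, above 50% in AII replicate 3 and AII+EGF replicate 4. The biological coefficient of variation was 10.6% after 6 h and 29.1% after 24 h. Of 7 markers that HEK293 cells express, all exceeded 1 FPM in a 6 h library and all but PAX2 in a 24 h library, with summed levels of 1144 to 1640 FPM and 1774 to 4383 FPM. Of 10 markers of other cell types, 6 did not exceed 1 FPM in any 6 h library and 7 in any 24 h library, with sums of 41.4 to 76.1 FPM and 29.3 to 46.8 FPM. The highest of these were the collagen genes COL3A1 with up to 32.6 FPM after 6 h and COL1A1 with up to 19.3 FPM after 24 h. Their part in the members' values was not tested.

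Levels are given as FPM, the count scaled by the TMM-adjusted size of the library, and divided by the length of the MANE Select transcript in kb where different genes are compared. After 6 h in control, MAP2K2, which encodes MEK2, had the highest level of all members with 58.9 ± 7.02 FPM per kb (SD, n = 4). MAPK3, which encodes ERK1, followed with 41.9 ± 4.15, PTPN11, the phosphatase SHP2, with 39.3 ± 3.23 and NRAS with 35.7 ± 2.26. The ranges of MAPK3, PTPN11 and NRAS overlapped, whereas the lowest MAP2K2 library, at 52.9, lay above the highest MAPK3 library, at 46.7. NF1, the large GTPase-activating protein, stood at 30.3 ± 2.17, the kinase ARAF at 25.2 ± 1.72 and HRAS at 24.6 ± 6.96. At the other end stood the RAS relative RRAS with 3.12 ± 1.24, the docking protein GAB2 with 2.58 ± 0.867, the RAS relative MRAS with 1.78 ± 0.250 and the kinase RPS6KA5 with 1.42 ± 0.133 FPM per kb. The values of RRAS and GAB2 overlapped between libraries. Within the pairs of related genes, MAP2K1 made up 16.1% to 21.3% of the MEK level in the control libraries, GAB2 25.3% to 35.3% of the GAB1 and GAB2 level, and RPS6KA3 68.3% to 83.1% of the RPS6KA3 and RPS6KA2 level. After 24 h MAPK3 with 29.3 ± 3.22 and MAP2K2 with 21.0 ± 3.17 FPM per kb were the highest and RPS6KA5 with 0.662 ± 0.114 was again the lowest. FPM is a share of all counts, so the lower values after 24 h stand beside the larger share of U1, and levels were not compared between time points.

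**Figure D1:**
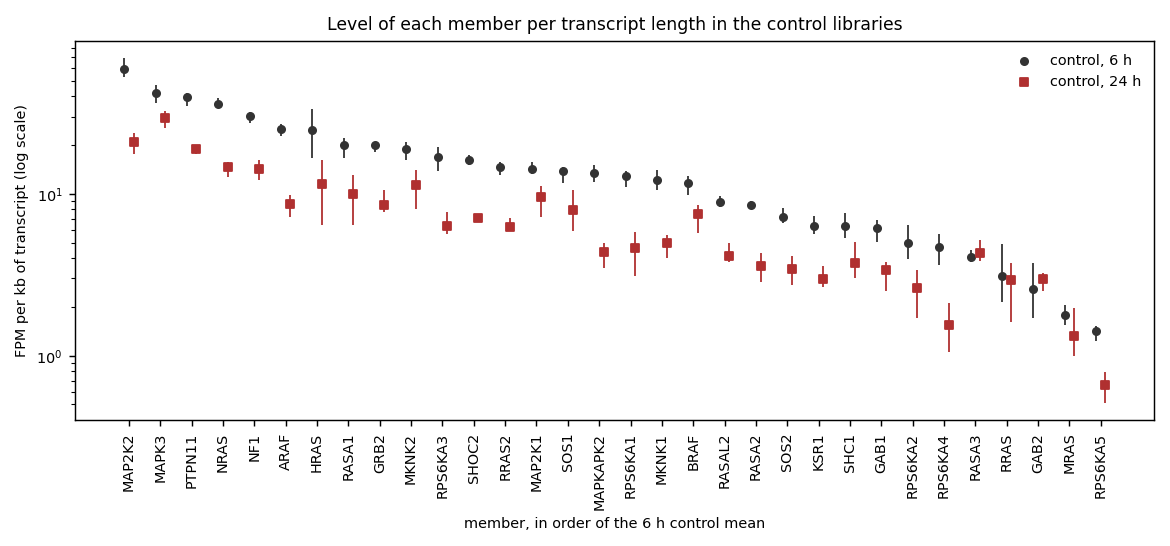
Level of each of the 32 members in the control libraries, as FPM per kb of transcript on a log axis, after 6 h (circles) and 24 h (squares); points are means of 4 libraries and lines run from the lowest to the highest library. MAP2K2 stands highest after 6 h at 58.9 and RPS6KA5 lowest at both time points.

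The first question was which components respond to EGF. After 6 h, 4 of the 32 members passed edgeR's quasi-likelihood test against control (adjusted p under 0.05). MAP2K1, the gene of MEK1, and RPS6KA3, the gene of the kinase RSK2, rose, whereas RPS6KA2, the gene of RSK3, and RRAS fell. This share, 12.5%, stands beside 5.97% of all 18618 genes tested; in single directions 3.6% of all genes passed as higher and 2.37% as lower. A change of more than 1.5-fold with a mean above 5 FPM, called regulated below, was found for 1 member, RPS6KA2, and for 1.73% of all genes. The median log2 fold change of the members was -0.02 and that of all genes -0.01. For 28 of the 32 members the 95% interval of the effect lay within 1.5-fold in either direction, beside 54.6% of all genes. The width of an interval depends on the read count, which was not matched between members and all genes here or below. These shares therefore do not show that members changed less. The median absolute log2 fold change was 0.142 for the members and 0.171 for all genes. The EGF and control libraries did not overlap for 6 members, beside 2242 of 18618 genes.

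MAP2K1 (chr15:66679175-66783994, plus strand, GRCh37), whose product phosphorylates ERK, lay at 33.8, 36.8, 34.1 and 39.9 FPM in the control libraries after 6 h, at 51.5, 42.9, 50.7 and 48.5 FPM with EGF and at 44.1, 53.2, 56.5 and 51.6 FPM with AII+EGF. Every library with EGF or AII+EGF was above every control library. EGF raised it 1.33-fold (log2 fold change 0.42, SE 0.11, adjusted p = 0.0209 in edgeR), and the exact two-sided permutation test of the FPM values gave p = 0.0286, the smallest that 4 against 4 libraries can give. AII+EGF raised it 1.42-fold (log2 fold change 0.50, SE 0.11, adjusted p = 0.00492; exact permutation p = 0.0286). With AII alone the libraries stood at 32.1, 38.2, 37.5 and 48.3 FPM, a log2 difference from control of 0.10 (SE 0.11), and 3 of these 4 lay within or below the control range. The rise with AII+EGF passed in each of the fits that left out 1 library, whereas the rise with EGF did not pass without control replicate 3, EGF replicate 1 or EGF replicate 3, at adjusted p values of 0.0543, 0.0586 and 0.0634. MAP2K2 did not follow it: its log2 fold change was -0.10 with EGF and 0.05 with AII+EGF. MAP2K1 made up 22.6% to 30.8% of the summed MEK level per kb in the EGF libraries and 23.0% to 27.5% in those of AII+EGF, above the 16.1% to 21.3% of control in every library. This share uses the same MAP2K1 values and is no separate support. On the genome, 20.5% of the exon bases of MAP2K1 are shared with SNAPC5 and another gene on the opposite strand and the strand setting of the counting is not stated; SNAPC5 had a log2 fold change of -0.18 (SE 0.15) with EGF and -0.12 (SE 0.15) with AII+EGF.

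Of the 8 ERK-dependent kinases, 2 passed with EGF and 2 with AII+EGF after 6 h. RPS6KA3 encodes RSK2, a kinase that ERK activates directly and that phosphorylates ribosomal protein S6 and transcription factors. The gene lies at chrX:20168029-20285637 on the minus strand. It stood at 110, 133, 155 and 138 FPM in control, at 195, 163, 176 and 177 FPM with EGF and at 172, 170, 174 and 151 FPM with AII+EGF. All EGF libraries were above control, and with AII+EGF 3 of 4 were. The EGF mean exceeded control by 57.4 FPM within the first library series and by 30.2 FPM within the second. These series are the lower and the higher library numbers, a split assumed here because no label names a series or batch. The log2 fold change was 0.41 with EGF (SE 0.09, adjusted p = 0.00812; exact permutation p = 0.0286) and 0.31 with AII+EGF (SE 0.09, adjusted p = 0.0423; exact permutation p = 0.0571). The rise with EGF passed with any library left out. That with AII+EGF passed in 7 of 16 such fits, with adjusted p values of up to 0.118.

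RPS6KA2, the gene of the closely related RSK3 at chr6:166822852-167319939 on the minus strand, moved the other way. Control libraries held 37.2, 27.0, 23.0 and 29.3 FPM, EGF libraries 14.7, 20.8, 20.4 and 20.1 FPM and AII+EGF libraries 21.6, 22.9, 20.2 and 23.0 FPM. The EGF libraries were all below control, with mean differences of -14.4 FPM within the first and -5.89 FPM within the second library series, and the highest AII+EGF library was level with the lowest control library. EGF lowered it 1.52-fold (log2 fold change -0.60, SE 0.14, adjusted p = 0.00769; exact permutation p = 0.0286), and this passed with any library left out, although the fold change fell under 1.5 without control replicate 1 or without EGF replicate 1. With AII+EGF the log2 fold change of -0.40 (SE 0.13) did not pass (adjusted p = 0.0848). RPS6KA3 accounted for 85.1% to 90.6% of the RPS6KA3 and RPS6KA2 level per kb with EGF and for 68.3% to 83.1% in control, without overlap. This lack of overlap is no separate finding. It follows from every EGF library being above control for RPS6KA3 and below control for RPS6KA2. With AII+EGF the share was 82.7% to 86.3%.

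MAPKAPK2 encodes MK2, a kinase known mainly as a substrate of p38 and also reached by ERK. The gene lies at chr1:206858250-206907626 on the plus strand. It held 46.7, 36.7, 38.3 and 43.7 FPM in control, 31.4, 36.2, 43.2 and 33.3 FPM with AII, 43.3, 45.0, 57.9 and 61.5 FPM with EGF and 54.2, 51.9, 60.8 and 59.4 FPM with AII+EGF. With AII+EGF every library was above control and above AII, whereas EGF replicates 1 and 2 lay within the control range. The rise against control passed with AII+EGF (log2 fold change 0.46, SE 0.12, adjusted p = 0.0201; exact permutation p = 0.0286) and not with EGF (0.34, SE 0.12, adjusted p = 0.0958), but AII+EGF set directly against EGF gave a log2 difference of 0.12 (95% interval -0.12 to 0.36, adjusted p = 0.798). The AII+EGF call was lost without control replicate 2 or 3 or AII+EGF replicate 3 or 4, with adjusted p values of up to 0.0770. The library series were assumed from the label numbers, with 1 to 8 as the first and 9 to 16 as the second. The EGF libraries exceeded control by 2.43 FPM in the first library series and by 18.7 FPM in the second. The remaining kinases did not pass in the 6 h comparisons with control in edgeR as described. Among them were RPS6KA1 (RSK1) with -0.34 and MKNK1, which phosphorylates the translation factor eIF4E, with -0.34 with EGF on the log2 scale (adjusted p = 0.0581 and 0.0631), and RPS6KA4, the histone kinase MSK2, with 0.47 with AII+EGF (adjusted p = 0.164). These calls depended on the processing. RPS6KA1 passed with EGF under DESeq2, over protein-coding genes only and with library series as a block, MKNK1 under DESeq2 and over protein-coding genes only, and RPS6KA4 passed with AII+EGF when low counts were not removed.

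**Figure D2:**
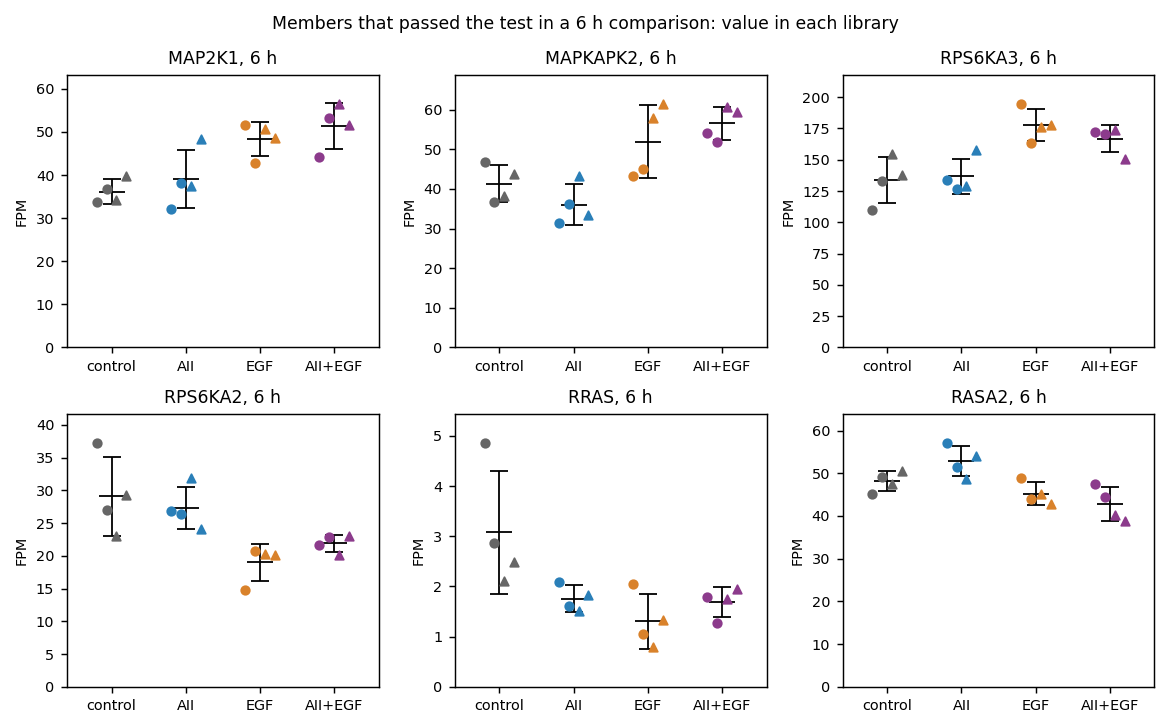
FPM in each library after 6 h for the 6 members that passed the test in any 6 h comparison, by condition; circles are libraries of the first and triangles of the second library series, and black bars are means with SD (n = 4). MAP2K1 and MAPKAPK2 with AII+EGF and RPS6KA3 with EGF lie above all control libraries, and RPS6KA2 and RRAS with EGF lie below.

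The promoters of the members were searched for letters bound by factors of early ERK-driven transcription, since the 6 h comparison had called members in both directions. RefSeq promoter windows (GRCh38.p14, 250 bases before to 50 after each start) were at hand for 27 of the 32 members, in 46 windows; GAB1, PTPN11, RRAS, RASA2 and MAPKAPK2 had none. A CArG box, the letters bound by SRF, was found on either strand in 2 of the 46 member windows, of 2 members, and in 454 of all 35093 windows (1.29%). The 2 sites are printed with 10 bases on each side and with the box in capitals, 5′ to 3′ on the strand of the gene, because one belongs to the member that fell most clearly with EGF. That of RPS6KA2 lies at chr6:167276095-167276124 on the minus strand of GRCh37, 101 to 92 bases before 1 of its 3 starts and over an annotated exon, and that of MKNK2 at chr19:2051255-2051284 on the minus strand, 31 to 22 bases before its start and outside annotated exons.
RPS6KA2: tcgtttagagCCAATTAAGGtaaaatagtg
MKNK2: caggtccgggCCTATAAAGGtggcggcggc
MKNK2 had a log2 fold change of -0.03 with EGF after 6 h (adjusted p = 0.909). The letters CGCCCCCGC, bound by EGR factors, were found in 6 of the 46 member windows, of 6 members (GRB2, MAPK3, MRAS, RASA3, RPS6KA1 and RPS6KA5), and in 1778 of all 35093 windows (5.07%). TGANTCA, bound by AP-1, was found in 3 of the 46 member windows, of 3 members (KSR1, RPS6KA4 and SHC1), and in 2704 of all windows (7.71%). No test compared these shares. None of the members with either of these matches passed the test at either time point. The windows of MAP2K1 and RPS6KA3, which rose, held none of the 3 motifs. Each of these genes has 2 starts, and for each the stretch before 1 of them and outside annotated exons is printed for comparison, that of the first start for MAP2K1 and of the second for RPS6KA3, 5′ to 3′ on the gene's strand and without capitals, from chr15:66679085-66679174 on the plus strand and chrX:20285028-20285156 on the minus strand of GRCh37.
MAP2K1: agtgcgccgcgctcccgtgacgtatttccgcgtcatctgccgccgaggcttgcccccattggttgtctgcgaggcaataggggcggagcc
RPS6KA3: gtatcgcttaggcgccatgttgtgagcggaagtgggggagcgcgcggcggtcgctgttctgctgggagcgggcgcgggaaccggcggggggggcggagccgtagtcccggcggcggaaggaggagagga
A match is a description of letters and not of binding, and the absence of a match says only that these letters are not in the window.

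Of the 5 RAS GTPases, 1 passed with EGF after 6 h. RRAS (chr19:50138549-50143400, minus strand), which acts on integrins and adhesion, was among the lowest members, with 21, 18, 11 and 15 reads in the control libraries and 12, 7, 5 and 11 with EGF. These counts correspond to 4.86, 2.87, 2.11 and 2.48 FPM in control, to 2.05, 1.05, 0.789 and 1.33 FPM with EGF, to values of 2.09 FPM at most with AII and to 1.79, 1.27, 1.76 and 1.96 FPM with AII+EGF. All libraries of the 3 stimulated conditions lay below the lowest control library. The log2 fold change was -1.21 with EGF (SE 0.34, adjusted p = 0.0308), -0.79 with AII (SE 0.33, adjusted p = 0.987) and -0.82 with AII+EGF (SE 0.33, adjusted p = 0.158), and the exact permutation p was 0.0286 in each case. Lack of overlap between AII and control was found for 2 of 32 members beside 398 of 18618 genes. Because the 3 comparisons of RRAS with control share the control libraries, of which replicate 1 was the highest, they are not separate observations. Without that library the EGF effect was -0.93 and did not pass (adjusted p = 0.136), and neither did it without control replicate 2 or EGF replicates 2, 3 or 4. HRAS, NRAS, MRAS and RRAS2 had log2 fold changes between -0.18 (MRAS) and 0.20 (NRAS) with EGF and of up to 0.28 (HRAS) with AII+EGF, and did not pass.

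The other roles gave no call against control after 6 h. The 8 adaptors, exchange factors and scaffolds lay between -0.16 (GAB1) and 0.23 (PTPN11) on the log2 scale with EGF and between -0.25 (SOS2) and 0.28 (GAB2) with AII+EGF. PTPN11, the phosphatase SHP2 that RAS activation by EGF needs, came closest with an adjusted p of 0.0796 for EGF, and it passed under DESeq2, over protein-coding genes only and with library series as a block. The 3 members of the RAF level, ARAF, BRAF and the scaffold KSR1, ranged from -0.16 to 0.19 in the EGF and from -0.21 to 0.09 in the AII+EGF comparison. MAPK3, the only ERK gene among the members, had log2 fold changes of -0.11 with EGF and -0.01 with AII+EGF. The 5 GTPase-activating proteins lay between -0.09 (RASA2) and 0.16 (NF1) with EGF and between -0.17 (RASA2) and 0.21 (RASA3) with AII+EGF.

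In all, AII+EGF against control gave 3 of 32 members after 6 h, MAP2K1, MAPKAPK2 and RPS6KA3, each higher. This is 9.38% of the members beside 6.1% of all genes, 4% as higher and 2.11% as lower. None of the 3 exceeded 1.5-fold, so that 0 members were regulated, against 1.95% of all genes. Of the 32 intervals, 25 lay within 1.5-fold, beside 54.8% of all genes, with median absolute log2 fold changes of 0.167 and 0.165. The AII+EGF and control libraries did not overlap for 6 members, beside 2261 of 18618 genes. The EGF and the AII+EGF comparisons share the control libraries.

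AII alone gave 0 of 32 members and 0% of all genes in edgeR after 6 h, and DESeq2 called 0 genes. An unadjusted p under 0.05 in edgeR was found for 1 member (3.12%) and 845 genes (4.54%). The members with the smallest unadjusted p were RRAS, described above, RASA3, a GTPase-activating protein of RAS and RAP, and RPS6KA1. RASA3 stood at 17.3, 15.9, 18.8 and 16 FPM in control and at 22.3, 21.0, 21.8 and 17.8 FPM with AII (log2 fold change 0.30, SE 0.15, adjusted p = 0.987; exact permutation p = 0.0571). RPS6KA1 stood at 44.2, 35.1, 43.7 and 40.7 FPM in control and 30.8, 36.8, 40.4 and 33.6 FPM with AII (log2 fold change -0.20, SE 0.11, adjusted p = 0.987). Neither difference passed the test, and the AII and control libraries of both genes overlapped. The 95% interval of the AII effect lay within 1.5-fold for 30 of the 32 members, beside 60.7% of all genes. The exceptions among the members were RASA3 and RRAS.

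EGF given on top of AII, read as AII+EGF against AII, called 3 of 32 members after 6 h, 9.38% beside 5.93% of all genes. The 2 that were higher stand beside 3.92% of all genes and the 1 that was lower beside 2.01%. MAPKAPK2 was 1.57-fold higher (log2 fold change 0.65, SE 0.12, adjusted p = 0.00137; exact permutation p = 0.0286), which was the single regulated member, against 1.87% of all genes, and passed in each fit that left out 1 library, although it fell under 1.5-fold without AII replicate 1. MAP2K1 was 1.33-fold higher (log2 fold change 0.41, SE 0.11, adjusted p = 0.0241; exact permutation p = 0.0571), and 11 of 16 fits without 1 library kept the call. RASA2 (chr3:141205869-141334186, plus strand), a GTPase-activating protein of the GAP1 family, was lower. It held 57.1, 51.5, 48.7 and 54.1 FPM with AII, 47.5, 44.5, 40.3 and 38.8 FPM with AII+EGF, 45.1, 49.1, 47.5 and 50.6 FPM in control and 48.9, 44.1, 45.1 and 42.8 FPM with EGF. AII and AII+EGF did not overlap, whereas control overlapped with both. Such a lack of overlap between AII+EGF and AII was found for 4 of 32 members beside 2375 of 18618 genes. The log2 fold change of RASA2 was -0.31 (SE 0.09, adjusted p = 0.0347 in edgeR, exact permutation p = 0.0286). The call was kept in 10 of 16 fits without 1 library. It was lost without AII replicates 1, 2 or 4 or AII+EGF replicates 2, 3 or 4 and when low counts were not removed.

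What AII adds to EGF was asked through AII+EGF against EGF, a difference that additive effects would also give. A joint effect beyond the single ones was asked through the interaction, a log2 value that subtracts both single effects from that of the joint stimulus. On this scale it measures a departure from multiplied fold changes. The paper's synergism is an effect above the sum of the single effects, which is another measure. After 6 h AII+EGF against EGF called 0 of 32 members and 0% of all genes in edgeR. DESeq2 called 1 gene, not a member. An unadjusted p under 0.05 in edgeR was found for 0 members and 1352 genes (7.26%). The 95% interval lay within 1.5-fold for 28 members, beside 61.4% of all genes. The intervals of MRAS, HRAS, RPS6KA4 and RRAS reached beyond it, with differences that were all above 0. For MAP2K1 the interval was -0.13 to 0.30, for RPS6KA3 -0.28 to 0.10 and for RPS6KA2 -0.08 to 0.48 on the log2 scale. The smallest unadjusted p belonged to RPS6KA4 (10.3 to 18.4 FPM with EGF and 15.1 to 25.6 FPM with AII+EGF, log2 difference 0.36, SE 0.18), HRAS (20.2 to 31.0 and 27.5 to 35 FPM, 0.31, SE 0.16) and SOS1 (111 to 140 and 99.6 to 126 FPM, -0.18, SE 0.09), each with an adjusted p of 0.683. The libraries of the 2 conditions overlapped for each of these genes. They did not overlap for 1 of 32 members, MRAS, beside 1040 of 18618 genes. MRAS stood at 5.53 to 7.10 FPM with EGF and at 7.52 to 8.72 FPM with AII+EGF, and did not pass. The interaction after 6 h called 0 members and 0% of all genes, and DESeq2 called 1 gene, not a member. An unadjusted p under 0.05 in edgeR was found for 3 members (9.38%) and 1491 genes (8.01%). The 3 members were RRAS (1.17, SE 0.49), RPS6KA1 (0.36, SE 0.15) and RRAS2 (-0.29, SE 0.13), with adjusted p values of 0.600, 0.601 and 0.603.

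**Figure D3:**
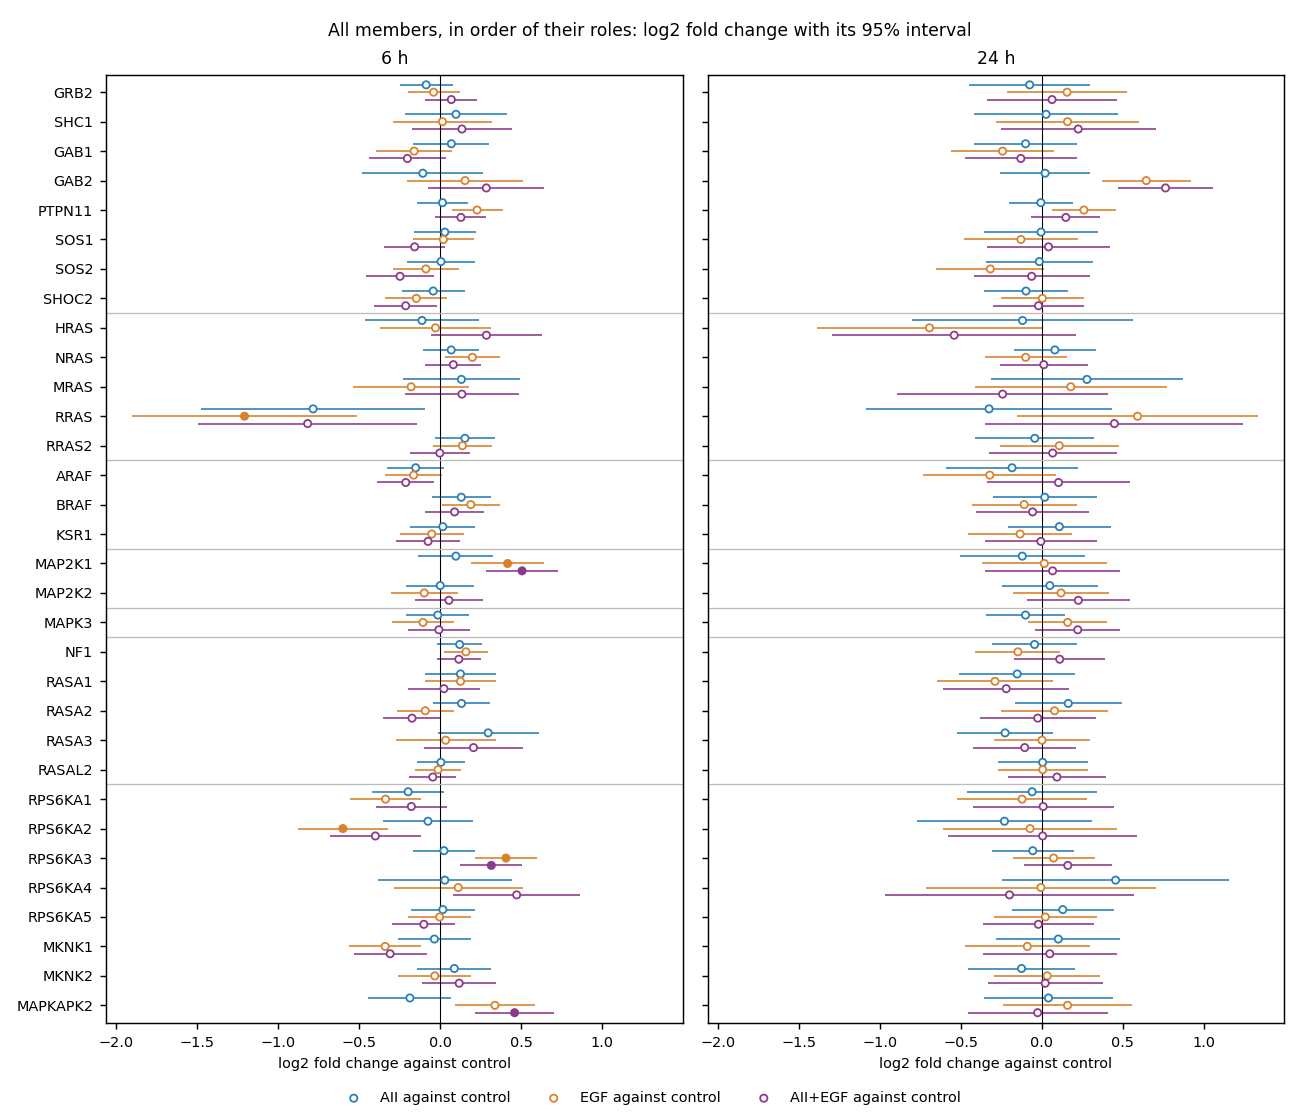
Log2 fold change against control of all 32 members after 6 h (left) and 24 h (right) with AII, EGF or AII+EGF; lines are 95% intervals, filled points passed edgeR's test and grey lines separate the roles, from adaptors at the top to ERK-dependent kinases at the bottom. Filled points are few and confined to the 6 h panel (4 with EGF, 3 with AII+EGF), and the intervals after 24 h are wider; GAB2 stands apart to the right after 24 h.

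After 24 h no member passed edgeR's test in the comparisons. EGF against control gave 0 of 32 members beside 0.0316% of all 22174 genes, AII+EGF against control 0 beside 0.0271% and AII+EGF against AII 0 beside 0.0451%. At an unadjusted p under 0.05 stood 2, 1 and 2 members (6.25%, 3.12% and 6.25%), beside 1881, 1198 and 949 genes (8.48%, 5.4% and 4.28%). DESeq2 called 1 member in each of the 3, GAB2, beside 99, 50 and 44 of 22174 genes. AII against control, AII+EGF against EGF and the interaction called 0 members and 0% of all genes each. An unadjusted p under 0.05 was found for 0, 0 and 1 members and for 552, 747 and 525 genes (2.49%, 3.37% and 2.37%). DESeq2 called 0 genes in each. The 95% interval lay within 1.5-fold for 26 members for the AII effect, 22 for EGF and 24 for AII+EGF, fewer than after 6 h. The shares of all genes were 37.2%, 32.3% and 30%.

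GAB2 (chr11:77926339-78129394, minus strand), a docking protein that binds GRB2 and SHP2 and passes signals to ERK and phosphatidylinositol 3-kinase, stood apart from the other members after 24 h. Its libraries held 18.0, 19.9, 15.2 and 19.8 FPM in control, 17.5, 19.6, 19.6 and 17.2 FPM with AII, 33.5, 26.4, 24.9 and 29.5 FPM with EGF and 31.8, 28.4 and 32.4 FPM with AII+EGF. Every library that had received EGF lay above every library that had not. The log2 fold change was 0.64 with EGF (SE 0.13, adjusted p = 0.104; exact permutation p = 0.0286) and 0.76 with AII+EGF (SE 0.14, adjusted p = 0.0536; exact permutation p = 0.0571, the smallest that 3 against 4 libraries can give), a 1.56-fold and a 1.70-fold difference, neither of which passed. AII+EGF exceeded AII by 0.74 (SE 0.14, adjusted p = 0.0568). Under DESeq2 the same 3 differences passed with adjusted p values of 0.00363, 0.000996 and 0.00128, and in edgeR, once library series entered the fit as a block, with 0.0299, 0.0160 and 0.0164. Over all 22174 genes, 99, 50 and 44 passed under DESeq2 and 48, 36 and 41 with the block, also more than in the main fit. Without the 2 libraries in which U1 exceeded 50% of the counts, an alternative chosen after seeing the data, the effects were 0.63, 0.72 and 0.73, with adjusted p values of 0.160, 0.455 and 0.446. Within the first library series EGF exceeded control by 11 FPM and within the second by 9.66 FPM. AII alone differed from control by 0.02 on the log2 scale (95% interval -0.26 to 0.30). GAB2 made up 39.8% to 56.3% of the GAB1 and GAB2 level per kb in control, 55.8% to 69.8% with EGF, which overlapped with control, and 61.1% to 63.8% with AII+EGF, which did not. These shares use the same GAB2 values and are no separate support. After 6 h the control libraries of GAB2 ran from 10.4 to 22.8 FPM and enclosed all stimulated ones, and the log2 fold changes were 0.15 (SE 0.17) with EGF and 0.28 (SE 0.17) with AII+EGF.

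PTPN11 (chr12:112856155-112947722, plus strand) was the other member whose libraries did not overlap with control after 24 h, both with EGF and with AII+EGF. It stood at 106, 120, 120 and 114 FPM in control, at 149, 130, 138 and 134 FPM with EGF and at 130, 124 and 127 FPM with AII+EGF. The log2 fold change was 0.26 (SE 0.09, adjusted p = 0.433; exact permutation p = 0.0286) with EGF and 0.15 (SE 0.10, adjusted p = 0.997) with AII+EGF, so that the test was not passed. These 2 of 32 members without overlap stand beside 4.43% of all genes for EGF and 7.18% for AII+EGF. Its log2 fold changes after 6 h were of like size, 0.23 and 0.13.

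**Figure D4:**
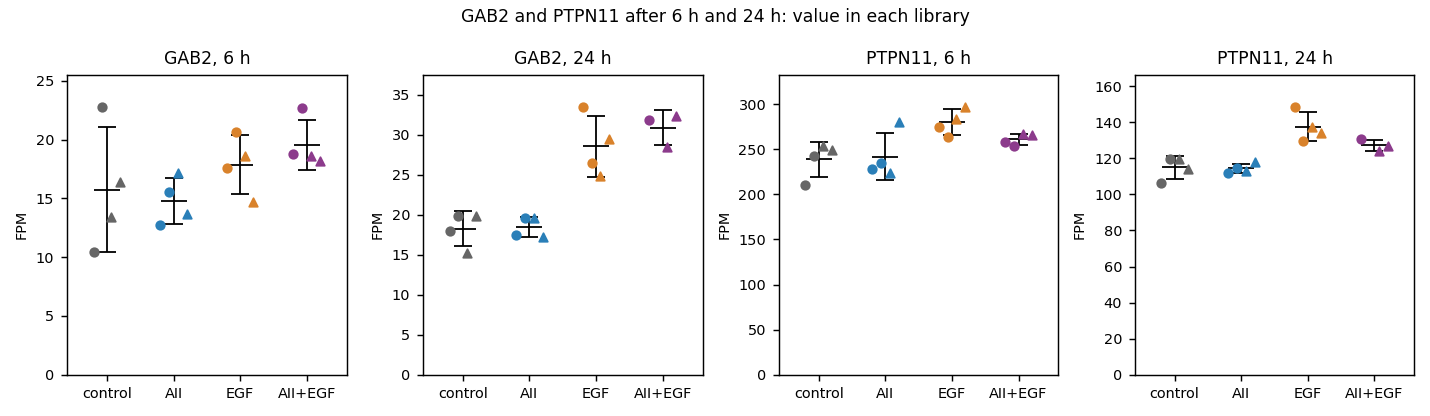
FPM of GAB2 and PTPN11 in each library after 6 h and 24 h, by condition; circles are libraries of the first and triangles of the second library series, and black bars are means with SD. After 24 h every EGF and AII+EGF library of both genes lies above all control libraries, with GAB2 at 24.9 to 33.5 FPM against 15.2 to 19.9 FPM.

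Further members are named for the smallest unadjusted p in a 24 h comparison, and none of them passed. HRAS held 9.29, 6.89, 15.6 and 17.3 FPM in control and 7.51, 7.35, 5.44 and 10.2 FPM with EGF (log2 fold change -0.69, SE 0.33, adjusted p = 0.589), with the control libraries split by library series. With AII+EGF it held 5.37, 11.8 and 8.57 FPM (log2 fold change -0.54, SE 0.36, adjusted p = 0.997), which also overlapped with control. MAPK3, the gene of ERK1, held 49.9, 45.4, 56.0 and 57.9 FPM in control, 46.4, 45.5, 53.5 and 49.8 FPM with AII and 53.7, 67.5 and 62.1 FPM with AII+EGF. Its AII+EGF libraries were above those of AII by a small margin (log2 difference 0.32, SE 0.13, adjusted p = 1.00) and overlapped with control (0.22, SE 0.13, adjusted p = 0.971). Such a lack of overlap between AII+EGF and AII was found for 4 of 32 members (GAB2, MAPK3, PTPN11 and RPS6KA3) beside 6.95% of all genes. RRAS held 1.79, 2.19, 3.27 and 1.84 FPM with AII and 4.19, 3.01 and 4.42 FPM with AII+EGF, which overlapped (log2 difference 0.77, SE 0.39, adjusted p = 1.00). In AII+EGF against EGF the leading members were ARAF (0.42, SE 0.21), NF1 (0.26, SE 0.14) and SOS2 (0.26, SE 0.17), each with an adjusted p of 1.00, and the libraries of NF1, at 185 to 194 FPM against 139 to 176 FPM, and of SOS2, at 17.6 to 18.5 FPM against 13.3 to 17.0 FPM, did not overlap. These 2 of 32 members stand beside 5.08% of all genes. In AII against control they were RASA3 (-0.23, SE 0.14), RPS6KA4 (0.45, SE 0.34) and RASA2 (0.16, SE 0.16), and in the interaction ARAF (0.61, SE 0.29), MRAS (-0.70, SE 0.42) and NF1 (0.30, SE 0.19), again with adjusted p values of 1.00.

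The members that had changed after 6 h showed no call after 24 h. MAP2K1 stood at 18.4 to 28.5 FPM in control, at 17.9 to 33.0 FPM under EGF and at 20.3 to 29.1 FPM under AII+EGF, with log2 fold changes of 0.01 (95% interval -0.37 to 0.40) and 0.07 (-0.35 to 0.48). RPS6KA3 differed from control by 0.07 with EGF and 0.16 with AII+EGF, RPS6KA2 by -0.07 and 0.00 and MAPKAPK2 by 0.16 and -0.03. RRAS, the lowest of them, was 0.59 above control with EGF (SE 0.36, adjusted p = 0.705), after it had been below after 6 h. Whether an effect differed between the time points was tested directly in a joint fit of all 31 libraries. The difference of the EGF effects, 24 h minus 6 h, passed for 0 of 32 members beside 0.173% of all genes. That of the AII+EGF effects passed for 0 beside 0.123%. At an unadjusted p under 0.05 stood 5 and 3 members, and the share of all genes at that p was not counted. By unadjusted p, RRAS came first with EGF (1.81, SE 0.51, adjusted p = 0.158), then RPS6KA3 (-0.34, SE 0.15, adjusted p = 0.435) and NF1 (-0.31, SE 0.14, adjusted p = 0.437). For AII+EGF, RRAS (1.26, SE 0.52), MAPKAPK2 (-0.51, SE 0.24) and HRAS (-0.85, SE 0.41) came first with adjusted p values of 0.538, 0.637 and 0.659. A difference between the time points was thus not shown for the members called after 6 h.

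The genes around the cascade were read from 2 further lists. Of 35 other pathway components, 25 could be tested after 6 h, of which 2 passed with EGF, both higher, and 2 with AII+EGF, with median log2 fold changes of -0.06 and -0.03. CBL, the ubiquitin ligase that removes active receptors, was higher with AII+EGF (0.25, SE 0.08, adjusted p = 0.0496), and RIT1, a RAS relative, was lower (-0.44, SE 0.13, adjusted p = 0.0400). Of 22 feedback and target genes of ERK, 19 could be tested after 6 h, and 12 passed with EGF and 14 with AII+EGF, in each case as higher. Their median log2 fold changes were 0.75 and 0.91, against -0.01 for all genes in both comparisons. The largest changes with AII+EGF were those of the transcription factor genes ETV5 (5.87, SE 0.48, adjusted p = 1.74e-08), EGR1 (4.64, SE 0.17, adjusted p = 9.53e-15), EGR3 (3.13, SE 0.25, adjusted p = 1.02e-08) and FOS (2.68, SE 0.30, adjusted p = 2.89e-06). After 24 h 1 of 20 tested target genes, EGR1, passed with EGF and with AII+EGF. The list of target genes was made up of genes known to respond to ERK, so that its direction is no separate finding. No test compared the lists with each other.

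The receptors stimulated were both present. AGTR1, the gene of AT1R, stood at 950 to 1191 FPM in control after 6 h and at 369 to 642 FPM after 24 h, and RNA from the plasmid and from the cells' own gene cannot be told apart in these counts. After 6 h it was at 1318 to 1515 FPM with AII and at 1414 to 1568 FPM with AII+EGF, above control in every library, with log2 fold changes of 0.34 (SE 0.08, adjusted p = 0.987) and 0.45 (SE 0.08, adjusted p = 0.000498). EGFR stood at 40.7 to 50.7 FPM in control and rose with EGF (0.35, SE 0.10, adjusted p = 0.0319) and with AII+EGF (0.41, SE 0.10, adjusted p = 0.0123) after 6 h. What part the amount of AT1R plasmid RNA has in the members' values was not tested.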

How the data were processed

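RNA depleted of ribosomal RNA was sequenced as paired ends on a HiSeq2000. Per the labels and the methods of the study, the authors trimmed reads with Trim Galore and cutadapt 1.8.1, aligned them to hg19 with TopHat2 2.0.14 (the series text names HISAT2) and counted them with featureCounts 1.4.6. The deposited values are raw counts of reads per gene, and the strand setting is not given in the sources used here. Of 32 libraries in the labels, 1 (AII+EGF after 24 h) is not analysed here, and 8 of the 15 columns after 24 h carry the word filtered without further explanation. Total counts were 3881841 to 8540815 per library after 6 h and 6646227 to 33070903 after 24 h.

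Each time point was fitted on the whole table with edgeR 4.0.16 (R 4.3.3, TMM, filterByExpr, quasi-likelihood F test, Benjamini-Hochberg adjustment over all genes tested), with 4 conditions and no covariate; a joint fit gave the 24 h minus 6 h effects. A gene passed at an adjusted p under 0.05. Regulated genes also differed by more than 1.5-fold and had a mean above 5 FPM. Single values were compared by exact two-sided permutation tests over libraries. These were run on members picked from the same libraries, so that they are no separate support. Any gene without overlap between the conditions has the smallest possible p. Scripts were tested on simulated data. Alternatives were DESeq2 1.42.0, its size factors in edgeR, no filter on low counts, protein-coding genes only, the library series as a block, an adjusted p of 0.01, each library left out, and values within library series. All members are accounted for: those that passed in any comparison, and the 3 with the smallest p of a comparison with none, are named with effect, SE and adjusted p, and PTPN11 with AII+EGF after 24 h was added for its lack of overlap. The members and lists were chosen with earlier results of these data known. The library series were assumed from the library numbers, as no label names a series or batch. Positions are from GENCODE v44 lifted to GRCh37.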

Additional observations from a re-analysis of the deposited data

Results flagged for a closer look

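Over the 224 combinations of member, condition and time point with 4 libraries, 15 had 1 library whose gap to the nearest other exceeded Dixon's 95% critical share of the range. Chance gives about 1 in 20, or 11.2. Of these, 8 were after 6 h and 7 after 24 h, in 11 libraries.

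After 6 h, RPS6KA2 was lowest in EGF replicate 1 (14.7 FPM against 20.1 to 20.8 FPM, gap 0.894 of the range), the library without which its fall was under 1.5-fold. RPS6KA3 was lowest in AII+EGF replicate 4 (151 FPM against 170 to 174 FPM, 0.844). ARAF was highest in the same library (57.4 FPM against 49.2 to 49.9 FPM, 0.920). KSR1 was highest in AII+EGF replicate 3 (39.7 FPM against 34.7 to 34.9 FPM, 0.960) and GAB2 in AII+EGF replicate 2 (22.7 FPM against 18.2 to 18.8 FPM, 0.874). GAB1 was highest in EGF replicate 1 (53.4 FPM against 39.4 to 40.6 FPM, 0.920). Among the control libraries, GRB2 was lowest in replicate 2 (59.7 FPM against 66.6 to 67.8 FPM, 0.853) and SOS1 in replicate 1 (105 FPM against 126 to 130 FPM, 0.834).

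After 24 h, control replicate 4 was highest for GRB2 (34.8 FPM against 25.4 to 26.1 FPM, 0.926) and lowest for GAB1 (19.6 FPM against 28.1 to 29.3 FPM, 0.879), and control replicate 2 was highest for RASAL2 (48.7 FPM against 37.4 to 38.9 FPM, 0.869). AII replicate 3, in which U1 exceeded 50% of the counts, was lowest for SOS2 (15.5 FPM against 19.3 to 20.1 FPM, 0.838) and highest for MAP2K2 (49.1 FPM against 32.3 to 34.9 FPM, 0.842). NRAS was highest in AII replicate 2 (76.0 FPM against 63.6 to 64.1 FPM, 0.957) and KSR1 in EGF replicate 1 (21.6 FPM against 14.5 to 15.4 FPM, 0.874).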

How the results depend on the processing

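After 6 h the count of members that passed with EGF was 4, 7 over protein-coding genes only, 2 at an adjusted p under 0.01 and 2 to 5 with 1 library left out (2 without EGF replicate 3). Its regulated count of 1 was 0 without a filter on low counts and 0 to 1 with 1 library left out. The count over all genes moved as well. With EGF, 1112 of 18618 genes passed in the main fit, 1377 under DESeq2 and 1345 with the library series block. Over protein-coding genes only, 1328 of 13237 passed, and without EGF replicate 3, 758 of 19059. With AII+EGF the count of 3 was 1 at 0.01 and 1 to 3 with 1 library left out (1 without control replicate 2 or AII+EGF replicate 3). Of all genes, 1136 of 18618 passed with AII+EGF in the main fit. Without control replicate 2 it was 813 of 19041, and without AII+EGF replicate 3 it was 701 of 19094. In AII+EGF against AII the count of 3 was 1 at 0.01 and 1 to 4 with 1 library left out (1 without AII replicate 1 or 2 or AII+EGF replicate 2 or 3), and the regulated count was 0 to 1. In the main fit 1104 of 18618 genes passed this comparison. Without AII replicate 1 or 2 it was 678 of 19108 and 666 of 19059. Without AII+EGF replicate 2 or 3 it was 894 of 19175 and 704 of 19094. After 24 h, GAB2 passed and was regulated, a count of 1 in place of 0, with EGF under DESeq2 and the library series block. With AII+EGF, against control and against AII, it did so under these and with no filter or protein-coding genes only, and the count was 0 to 1 with 1 library left out (1 against control without control replicate 2 or EGF replicate 1, and against AII without control replicate 3 or EGF replicate 1). In these 3 comparisons 99, 50 and 44 of 22174 genes passed under DESeq2 and 48, 36 and 41 with the block. In the main fit 7, 6 and 10 genes did. For the 2 comparisons of AII+EGF, 146 and 59 of 44398 genes passed with no filter. Of 14294 protein-coding genes, 17 and 25 passed. Without a filter, 90 genes passed with AII after 6 h in place of 0, and no member. RRAS in AII+EGF against AII after 6 h, -0.03, ranged from -0.11 to 0.071 with 1 library left out, above 0 at 0.064 without AII replicate 1 and 0.071 without AII+EGF replicate 2. Over 51 single-member results and 1152 alternatives, 1093 kept direction and side of the threshold, 34 lost the call, 23 gained it and 2 changed sign. Only results called in the main fit could lose a call. After 6 h these were 4 with EGF, 3 with AII+EGF and 3 in AII+EGF against AII. Losses ran from 0 of 21 alternatives, as for RPS6KA2 with EGF, to 9 of 21 for RPS6KA3 with AII+EGF. RASA2 against AII lost 7 of 21 and RRAS with EGF 6 of 20. The cause was not tested. Leaving out the 2 libraries above 50% U1 was an alternative added after seeing the data. Low counts limit RRAS. No paired analysis was possible because GEO labels number libraries only, and the replicate numbers used here follow accession order and name a library. DESeq2 gave RRAS no adjusted p with EGF after 6 h.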
